A study of Mus musculus with 10 samples.

Results

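Olfr290, Olfr291, Olfr292, Olfr293, Olfr294 and Olfr295 are 6 odorant receptor (OR) genes of mouse chromosome 7, out of 1027 OR genes (220 of them on chromosome 7) that had a probe set of their own on the array. They were chosen around Olfr293, together with the receptors of adjoining numbers. Olfr293 is a receptor of zone 2 that the study imaged as an example of low co-expression with its transgene. The choice was made with differences between genotypes in these data known. The differences between genotypes of these 6 genes are therefore given as a description, with no p-value, and a count of those past a threshold says nothing beyond the choice. Gene expression was measured in the whole main olfactory epithelium (MOE), which lines the nose and holds its odour-sensing neurons, of 5-week old mice on 4 arrays from H2be-GF mice and 6 arrays from wild-type (WT) mice. H2be-GF mice carry a transgene in which the promoter of olfactory marker protein (Omp) drives the histone variant H2BE with a FLAG tag. They come from a single founder line established by crosses to C57Bl/6, and the transgene is not expressed in a band of neurons near zone 2 (per the study's methods). WT mice carry no transgene. The RNA on an array came from more than 1 animal, and the labels name neither the animals nor the sex of a pool. The series states that the sexes were mixed, which need not mean within an array. Xist, given below, was high on 5 arrays and low on the other 5.

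Each mature olfactory neuron transcribes a single OR gene, chosen from a very large family that stands in clusters along most chromosomes. ORs are G protein-coupled receptors, and the neurons that express a given OR lie scattered within a zone of the epithelium and send their axons to common targets in the olfactory bulb. In RNA of whole tissue, a change in the number of neurons that express a receptor and a change in its RNA per neuron cannot be told apart. For Olfr293 the study also counted expressing neurons in tissue sections of H2be-GF and WT littermates. It reports that receptors which escape the transgene near zone 2 became more frequent. By their alternative names in the RefSeq gene table, Olfr290 and Olfr291 (MOR254-1 and MOR254-2) belong to a single receptor family, Olfr292 and Olfr295 (MOR220-2 and MOR220-1) to another, and Olfr293 (MOR221-3) and Olfr294 (MOR219-5) to a family each. The odorants that these 6 receptors detect are not part of these data.

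The 6 genes do not form a single run. In gene order, Olfr291 and Olfr290 stand as a pair. They are followed by 35 vomeronasal receptor genes and pseudogenes of the Vmn2r family, 12 of them protein coding. Then comes a cluster of 15 coding ORs and 3 OR pseudogenes that starts with Olfr310 and ends with Olfr295, Olfr294, Olfr293 and Olfr292. All 15 coding ORs of that cluster had a probe set. The sequence around the annotated gene start (250 bases before it and 50 from it, 300 in all, from RefSeq, GRCm38.p6) was at hand for Olfr290, Olfr292, Olfr293 and Olfr295. In 3 of these 4 windows, and in 685 of 944 OR windows, the annotated start is the ATG, so that the window holds the bases before the coding sequence, which need not be the promoter.

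The windows of Olfr293 and Olfr295 are shown because they are the most alike among the 4, with 202 identical aligned bases (67.3%), against 49.3% to 55.3% for the other pairs. Capitals mark stretches of at least 12 bases that the pair shares, the longest of 20 bases.
Olfr293 (chr7:86663414-86663713, plus strand): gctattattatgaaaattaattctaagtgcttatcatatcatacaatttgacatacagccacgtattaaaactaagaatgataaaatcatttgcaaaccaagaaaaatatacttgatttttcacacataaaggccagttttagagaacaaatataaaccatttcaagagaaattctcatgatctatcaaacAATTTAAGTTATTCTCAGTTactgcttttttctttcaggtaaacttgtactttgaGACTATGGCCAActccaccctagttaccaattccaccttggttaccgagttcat
Olfr295 (chr7:86585027-86585326, plus strand): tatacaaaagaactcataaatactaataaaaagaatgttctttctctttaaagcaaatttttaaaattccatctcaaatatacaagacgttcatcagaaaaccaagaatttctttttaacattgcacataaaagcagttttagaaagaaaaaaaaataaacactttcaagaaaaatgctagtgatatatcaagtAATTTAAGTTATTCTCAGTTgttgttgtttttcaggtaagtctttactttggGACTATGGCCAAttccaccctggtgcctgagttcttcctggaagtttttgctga
A closer match to Olfr293 lies in the same cluster. Over the 943 other OR windows the identity to Olfr293 had a median of 52.7%, and the nearest were Olfr297 (76%), Olfr310 (68.3%), Olfr295 and Olfr299 (67%), all of the cluster, followed by Olfr954 of chromosome 9 (60%). Olfr297 is shown with capitals for the stretches it shares with Olfr293.
Olfr297 (chr7:86526509-86526808, plus strand): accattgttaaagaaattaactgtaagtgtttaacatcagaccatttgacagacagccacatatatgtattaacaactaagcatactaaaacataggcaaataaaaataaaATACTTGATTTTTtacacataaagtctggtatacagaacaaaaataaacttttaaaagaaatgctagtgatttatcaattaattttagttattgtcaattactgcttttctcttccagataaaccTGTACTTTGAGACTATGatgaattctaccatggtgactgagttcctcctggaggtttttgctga
The window of Olfr290, from the separate pair, was nearest to Olfr1277 of chromosome 2 (60.7%, median 52.3%). It is shown because it is the only window among the 4 with a TAATTA, the core letters of homeodomain binding sites, in capitals at base -143 from the annotated start.
Olfr290 (chr7:84915531-84915830, plus strand): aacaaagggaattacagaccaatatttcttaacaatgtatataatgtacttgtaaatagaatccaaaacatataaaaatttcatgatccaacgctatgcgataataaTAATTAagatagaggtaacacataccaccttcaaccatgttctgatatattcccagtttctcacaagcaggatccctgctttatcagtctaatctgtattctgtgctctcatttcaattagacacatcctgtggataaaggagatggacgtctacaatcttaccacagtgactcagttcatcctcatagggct
TAATTA, searched on both strands, occurred in 18.6% of OR windows and in 5.29% of all 32851 windows. TAATGA (28.8% of OR windows, 9.78% of all) and the Olf/Ebf half-site pair CCCNNGGG (3.07% and 13.7%), also on both strands, were in none of the 4 windows. Such a match is a run of letters only.

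Olfr293 was higher on every H2be-GF array than on any WT array. Its log2 signal, the authors' summary of the probes of a gene, was 7.64, 7.81, 7.77 and 7.60 on the 4 H2be-GF arrays, against a lowest, median and highest value of 7.21, 7.32 and 7.40 on the 6 WT arrays. H2be-GF arrays 2 and 3 were the higher ones, and the lowest H2be-GF array stood 0.20 above the highest WT array. H2be-GF arrays averaged 7.70 ± 0.10 (SD, n = 4) and WT arrays 7.33 ± 0.07 (SD, n = 6), a log2 difference of 0.38 (SE 0.07), or 1.3-fold. Of 748 OR probe sets whose mean exceeded 7, a filter on dim signals, 15 had a larger rise.

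Olfr295, 2 genes before Olfr293 in the cluster, had the largest difference of the 6. Its values were 7.29, 7.47, 7.31 and 7.13 on H2be-GF arrays, against 6.63, 6.95 and 7.05 (lowest, median, highest) on WT arrays. The genotypes did not overlap, with a gap of 0.09, and H2be-GF 2 was again the highest array. H2be-GF arrays averaged 7.30 ± 0.14 (SD, n = 4) and WT arrays 6.89 ± 0.17 (SD, n = 6), a difference of 0.41 (SE 0.10), or 1.33-fold. Its mean over all arrays, 7.05, lay just above the filter of 7, and 7 OR probe sets had a larger rise.

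Olfr292, the last receptor of the cluster, overlapped between genotypes. It was at 7.96, 8.14, 7.80 and 7.83 on H2be-GF arrays, against 7.55, 7.68 and 7.88 on WT arrays. H2be-GF arrays 3 and 4 lay below the highest WT array, WT 2. H2be-GF arrays averaged 7.93 ± 0.16 (SD, n = 4) and WT arrays 7.70 ± 0.11 (SD, n = 6), a difference of 0.23 (SE 0.09), or 1.18-fold.

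Olfr294 stands between Olfr295 and Olfr293 and was the exception. It was at 5.52, 4.54, 4.66 and 4.83 on H2be-GF arrays, against 4.20, 4.85 and 5.53 on WT arrays, so that the genotypes covered nearly the same range. H2be-GF arrays averaged 4.89 ± 0.44 (SD, n = 4) and WT arrays 4.81 ± 0.52 (SD, n = 6), a difference of 0.08 (SE 0.27). Its mean of 4.84 was below the filter of 5 for all probe sets, which the other 5 genes passed, and at such dim signals the spread between arrays was several times that of its neighbours. Array 1 was the highest in both genotypes.

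The separate pair was also higher in H2be-GF. Olfr290 was at 8.52, 8.60, 8.49 and 8.43 on H2be-GF arrays, against 7.97, 8.19 and 8.36 on WT arrays, without overlap and with a gap of 0.06. H2be-GF arrays averaged 8.51 ± 0.07 (SD, n = 4) and WT arrays 8.19 ± 0.14 (SD, n = 6), a difference of 0.32 (SE 0.08), or 1.25-fold. Olfr291 was at 8.65, 8.57, 8.61 and 8.54 on H2be-GF arrays, against 8.25, 8.34 and 8.55 on WT arrays. Here a single WT array, WT 2, reached into the H2be-GF values, while the other WT arrays stayed at or below 8.36. H2be-GF arrays averaged 8.59 ± 0.05 (SD, n = 4) and WT arrays 8.35 ± 0.11 (SD, n = 6), a difference of 0.24 (SE 0.07), or 1.18-fold.

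**Figure D1:**
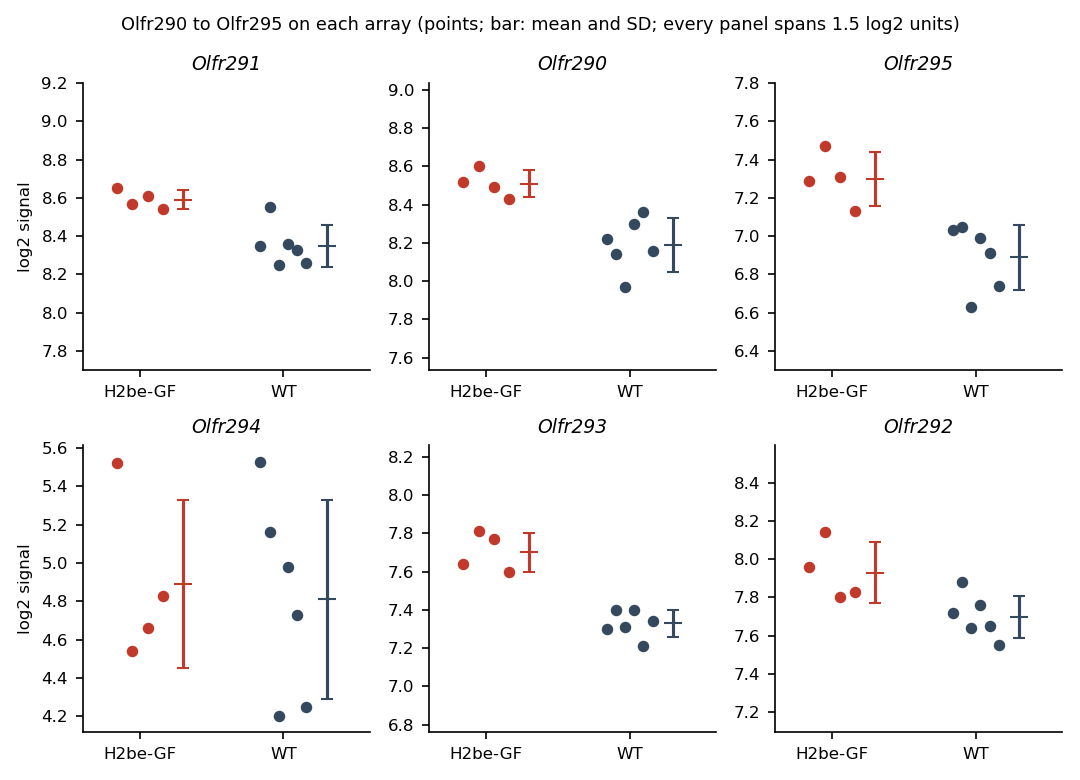
Log2 signal of the 6 receptors on each array, H2be-GF (red, 4 arrays) left of WT (dark, 6 arrays), with the mean and SD beside the points; every panel spans the same number of log2 units. Olfr290, Olfr293 and Olfr295 show no overlap between genotypes, Olfr291 and Olfr292 overlap slightly, and Olfr294 overlaps fully.

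All 6 differences were positive, with a median of 0.28, against a median of 0.02 over those 748 OR probe sets, of 0.01 over the 23194 probe sets tested (a mean above 5) and of -0.04 over the 156 other OR probe sets of chromosome 7 with a mean above 7. Over the 748 OR probe sets the differences ran from -0.73 to 0.62 with an SD of 0.19. No overlap, with H2be-GF higher, was seen in 3 of the 6 genes, where 4.01% of OR probe sets and 1.29% of all probe sets showed it. With limma and an adjustment over ORs at a threshold of 0.05, Olfr290, Olfr291, Olfr293 and Olfr295 were called, where 4.01% of OR probe sets (30 of 748) were called higher. The 6 genes were chosen with these differences known, so these calls describe the genes and do not test them. The count of 4 was 1 without H2be-GF 1, 2 or 3 and 2 without WT 6. With the adjustment over all probe sets none of the 6 was called, where 0.0474% were called higher and 0.0862% in either direction.

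**Figure D2:**
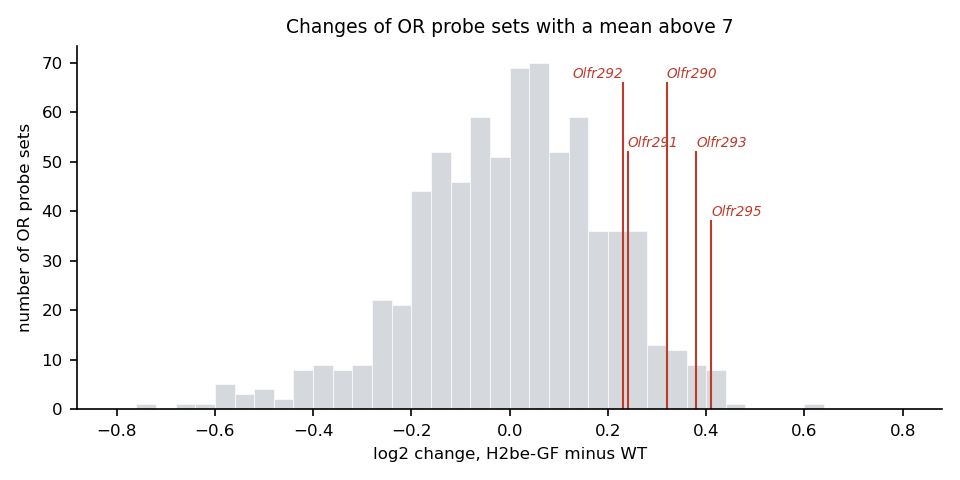
Number of OR probe sets (y axis) by log2 change, H2be-GF minus WT (x axis), for the 748 with a mean above 7; red lines mark the 5 receptors of the group that passed that filter. All 5 lie right of 0, from 0.23 for Olfr292 to 0.41 for Olfr295.

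The level of ORs as a whole varied between arrays of both genotypes. The mean over the 748 OR probe sets was 8.18, 8.07, 8.08 and 7.96 on H2be-GF arrays 1 to 4, against 7.97 to 8.18 on WT arrays, so that ORs as a whole overlapped between genotypes. Averaged over the 5 genes above the filter and set against their WT means, H2be-GF arrays 1 to 4 stood at 0.32, 0.43, 0.30 and 0.21, against -0.13 to 0.11 on WT arrays. WT 2, the WT array with the highest OR mean, was also the highest WT array for this average. When each array was centred on its OR mean, the median difference of the 6 genes was again 0.28.

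The other receptors of the same cluster differed unevenly. Of the 11, 8 were higher and 3 lower in H2be-GF, with a median difference of 0.16. In 3 of them all H2be-GF arrays lay above all WT arrays, and these 3 were among the 5 with a mean above 7. The same was seen in 4.01% of OR probe sets with a mean above 7 and in 1.29% of all probe sets tested. Olfr305 was the most clearly changed, at 8.36 ± 0.11 (SD, n = 4) on H2be-GF arrays against 7.97 ± 0.11 (SD, n = 6) on WT arrays, a rise of 0.39 (SE 0.08, limma adjusted p = 0.0105 over ORs). That call did not pass with the replicate number as a block (0.0581) or within the sets of arrays high (0.185) and low (0.318) in Xist. Olfr308 was higher by 0.36 (SE 0.09), a rise past the threshold over ORs (limma adjusted p = 0.0337), at 8.15 ± 0.14 (SD, n = 4) on H2be-GF arrays against 7.79 ± 0.15 (SD, n = 6) on WT arrays. These were 2 of the 5 that passed the filter of 7, where 4.01% of OR probe sets were called higher, and neither was called over all probe sets (limma adjusted p = 0.147 and 0.306). The call of Olfr308 did not pass without H2be-GF 1, 2 or 4 or without WT 3, 4 or 6 (limma adjusted p up to 0.107), nor within either of the sets of arrays that differ in Xist or with the replicate number as a block (0.0853 to 0.362), while its difference stayed between 0.29 and 0.42.

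Olfr298 also differed by 0.39 (SE 0.13), but its mean of 6.82 kept it out of the adjustment over ORs, and over all probe sets it was not called (limma adjusted p = 0.421). Olfr309 averaged 10.77 ± 0.07 (SD, n = 4) on H2be-GF arrays against 10.55 ± 0.09 (SD, n = 6) on WT arrays, a difference of 0.22 (SE 0.07) without overlap that was not called over ORs (limma adjusted p = 0.0586). Olfr307, Olfr301, Olfr304 and Olfr297 differed by 0.25, 0.16, 0.12 and 0.13, and Olfr299, Olfr303 and Olfr310 by -0.01, -0.04 and -0.10, all overlapping between genotypes. Thus Olfr297, whose window is nearest in sequence to that of Olfr293, averaged 8.25 ± 0.22 (SD, n = 4) on H2be-GF arrays against 8.13 ± 0.17 (SD, n = 6) on WT arrays, a difference within the spread of the arrays (SE 0.12, limma adjusted p = 0.567 over ORs). The difference between Olfr297 and Olfr293 in this respect was not tested.

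**Figure D3:**
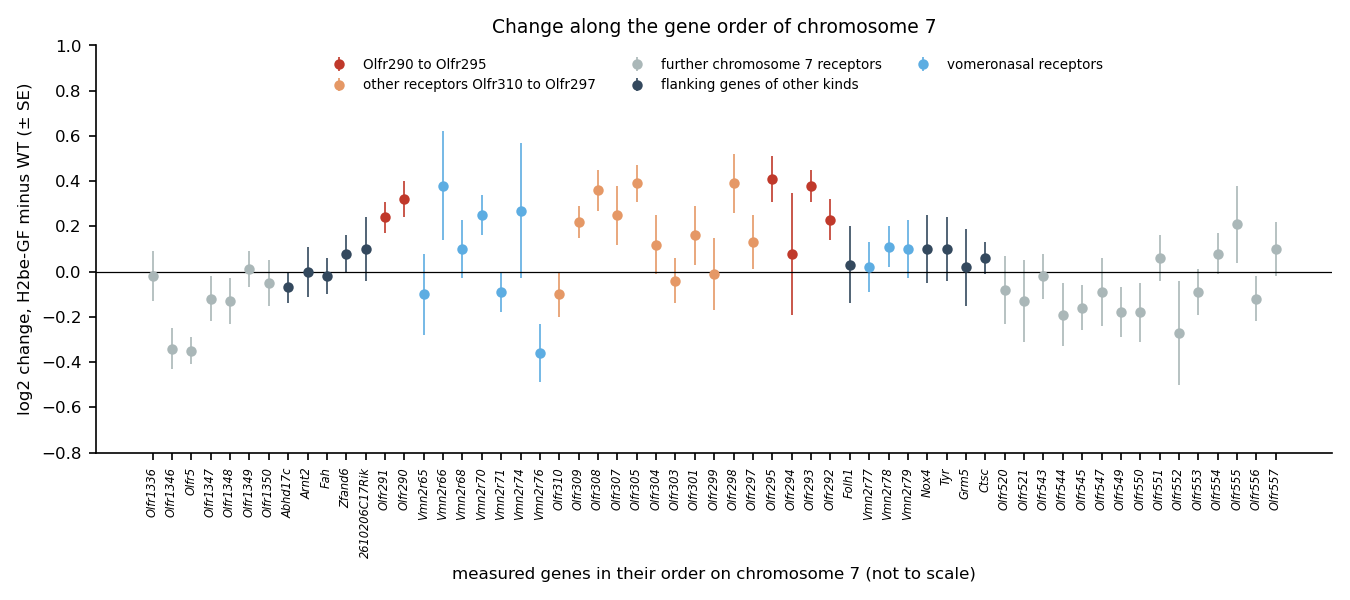
Log2 change, H2be-GF minus WT, with its SE (y axis) of measured genes in their order on chromosome 7 (x axis, not to scale): the 6 receptors (red), the other receptors of the cluster (orange), further receptors (grey), flanking genes (dark) and vomeronasal receptors (blue). The red and most orange points lie above 0, and most grey points below it.

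The nearest measured ORs outside the pair and the cluster were mostly lower, but they do not lie close by. In the gene order of the chromosome, Olfr291 is number 2604 and Olfr292 number 2668. Those before them are at numbers 180 to 187, Olfr5 and Olfr1346 among them, and those after them at 2834 to 2948. Of these 22 ORs, 17 were lower and 5 higher in H2be-GF, with a median difference of -0.11. None was called higher over ORs, and 2 of the 18 that passed the filter were called lower, where 5.88% of OR probe sets were called lower. Olfr5 fell by 0.35 (SE 0.06, limma adjusted p = 0.00725), at 7.15 ± 0.09 (SD, n = 4) on H2be-GF arrays against 7.50 ± 0.05 (SD, n = 6) on WT arrays. That call did not pass with a trended robust variance (limma adjusted p = 0.053), with the replicate number as a block (0.0853) or within the sets of arrays high (0.176) and low (0.328) in Xist. Olfr1346 fell by 0.34 (SE 0.09, limma adjusted p = 0.0402), at 8.61 ± 0.07 (SD, n = 4) on H2be-GF arrays against 8.95 ± 0.17 (SD, n = 6) on WT arrays. That call was kept under only 6 of 21 alternatives (limma adjusted p = 0.00228 to 0.53) and did not pass without any single H2be-GF array or without WT 2, 4, 5 or 6, at differences of -0.51 to -0.17 over all alternatives.

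Genes beside the receptors that are neither odorant nor vomeronasal receptors had differences close to 0. Of the 10 nearest measured ones (5 on each side), none was called over all probe sets, none reached an unadjusted p under 0.05, and the differences lay between -0.07 and 0.10 with a median of 0.04. The smallest p-values were those of Abhd17c, an enzyme that removes palmitate from proteins (-0.07, limma adjusted p = 0.839), and of Zfand6, a zinc finger protein (0.08, limma adjusted p = 0.843). The other flanking genes include Folh1, next to Olfr292, at 0.03 (SE 0.17), and Tyr, the enzyme tyrosinase of pigment synthesis, at 0.10 (SE 0.14). Of 10 vomeronasal receptors measured between and beside the receptor groups, 8 passed the filter of 5 and none was called, at differences between -0.36 and 0.38. Receptors of this family serve the vomeronasal organ, which detects pheromones.

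The arrays fell into 2 sets by Xist, the RNA that coats the inactive X chromosome of females. Xist was at 11.92 and 11.81 on H2be-GF 1 and 2 and at 11.69 to 11.81 on WT 1, 2 and 3, against 4.61 and 0.00 on H2be-GF 3 and 4 and 3.40 or below on WT 4, 5 and 6. The labels do not give the sets, and both hold each genotype. Olfr293 was higher in H2be-GF by nearly the same amount in each set, with means of 7.72 in H2be-GF and 7.34 in WT (0.39) where Xist was high, and of 7.68 in H2be-GF and 7.32 in WT (0.37) where it was low. Olfr291 was likewise even, at 0.23 and 0.26. The other differences were larger in the arrays high in Xist, 0.45 against 0.18 in those low in Xist for Olfr290, 0.48 against 0.34 for Olfr295 and 0.30 against 0.16 for Olfr292, while Olfr294 stood at 0.07 and 0.09. Within each set, 5 of the 6 genes did not overlap between genotypes, with 2 H2be-GF and 3 WT arrays. With so few arrays the same held for 19.3% of OR probe sets in the set high in Xist and 12.3% in the set low in Xist. An interaction of genotype and set was called for none of the 5 genes tested with limma (lowest adjusted p = 1, none with an unadjusted p under 0.05), nor for any probe set, of which 678 had an unadjusted p under 0.05.

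**Figure D4:**
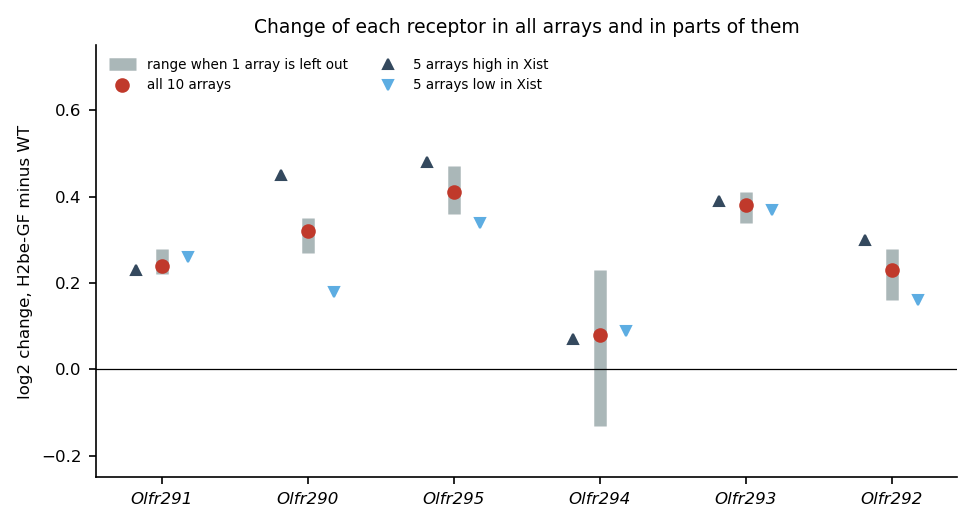
Log2 change, H2be-GF minus WT (y axis), of each receptor in all 10 arrays (red points), within the 5 arrays high in Xist (dark triangles) and the 5 low in Xist (blue triangles), and its range when 1 array is left out (grey bars). Olfr293 and Olfr291 change little between these, Olfr290 stands at 0.45 where Xist is high and at 0.18 where it is low, and only Olfr294 reaches below 0.

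Leaving out each array in turn kept the differences of Olfr293 between 0.34 and 0.41, of Olfr295 between 0.36 and 0.47, of Olfr290 between 0.27 and 0.35, of Olfr291 between 0.22 and 0.28 and of Olfr292 between 0.16 and 0.28. Only Olfr294 changed sign, with values between -0.13 and 0.23. Without WT 2, no overlap was seen in 5 of the 6 genes, where 6.95% of OR probe sets showed it.

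Whether the 6 receptors also vary together was asked within the WT arrays alone, which the difference between genotypes does not enter. Over the 15 pairs and 6 arrays, Pearson correlations ran from -0.25 to 0.93 with a median of 0.54, and 14 were positive. The closest were Olfr294 with Olfr295 (Pearson r = 0.93, exact permutation p = 0.00694, and Spearman rho = 0.94, exact permutation p = 0.0167) and Olfr291 with Olfr292 (Pearson r = 0.92, exact permutation p = 0.00556, and Spearman rho = 0.94, exact permutation p = 0.0167). Without the 2 arrays farthest from the median of the first gene, r was 1.00 and 0.95 over the 4 arrays left. No pair passed an adjustment over the 15 (lowest adjusted exact permutation p = 0.0521 for r and 0.0833 for rho, two-sided). Correlations of Olfr293 with the others lay between -0.25 with Olfr290 and 0.54 with Olfr292. After each array was centred on its OR mean the median over pairs was 0.05, with a range of -0.96 to 0.80 and 9 of 15 positive. The strongest was negative, Olfr293 with the dim Olfr294 (Pearson r = -0.96, exact permutation p = 0.00972, adjusted 0.146, and Spearman rho = -0.94). As deposited, the same pair stood at r = 0.15 (exact permutation p = 0.768). The centring subtracts the same OR mean from both genes of a pair, and its part in this shift was not tested. After centring, Olfr293 stood at r = -0.73 with Olfr295 (exact permutation p = 0.101) and between -0.23 and 0.05 with the others. The positive pairs named above stayed at r = 0.79 for Olfr294 with Olfr295 (exact permutation p = 0.0583) and at r = 0.80 for Olfr291 with Olfr292 (exact permutation p = 0.0667). Both had an adjusted exact permutation p of 0.333. Each Xist set holds only 3 WT arrays, too few for a value within sets.

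**Figure D5:**
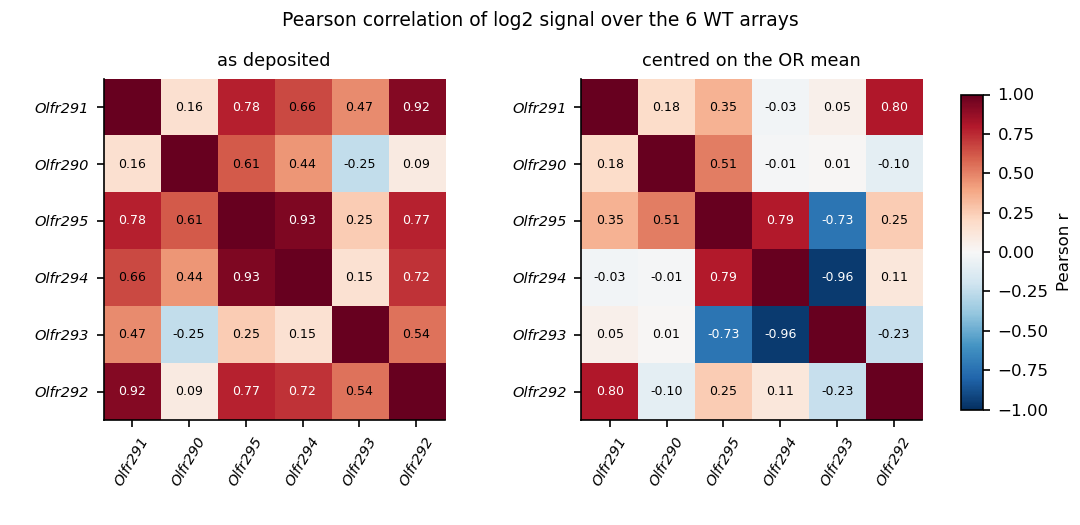
Pearson correlation of log2 signal between pairs of the 6 receptors over the 6 WT arrays, as deposited (left) and after centring each array on its OR mean (right); colour runs from -1 (blue) to 1 (red). Most pairs are red on the left, with a median of 0.54, and mixed on the right, with a median of 0.05.

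Receptors with the pattern most like that of Olfr293 over the 10 arrays, after the mean of each genotype was removed, were not its neighbours. Of 742 other OR genes with a mean above 7, Olfr1156, Olfr1247 and Olfr1109 (r = 0.87 each) came first, followed by Olfr57 (r = 0.85) and Olfr1155 (r = 0.84). All are on chromosome 2 except Olfr57, on chromosome 10. Their own differences between genotypes were -0.22, 0.22, 0.36, -0.16 and 0.00, so that a like pattern between arrays went with either direction. Olfr292 ranked 128 (r = 0.51), Olfr295 148 (r = 0.49), Olfr291 337 (r = 0.32) and Olfr290 576 (r = 0.04). For Olfr290 the nearest were Olfr1189 (r = 0.87), Olfr967 and Olfr1330 (r = 0.85 each), Olfr1412 (r = 0.83) and Olfr1325 (r = 0.78), of chromosomes 2, 9, 4, 1 and X, while Olfr295 ranked 16 (r = 0.67) and its pair partner Olfr291 316 (r = 0.17). These correlations share 10 arrays and whatever raises or lowers many ORs on an array, and are a description.

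None of the genes listed as acting downstream of any OR was called. They code for the olfactory G protein, the cyclase, the cyclic nucleotide-gated channel and the proteins that bring receptors to the cell surface. Of the 19 measured of 20 listed (Adrbk2 had no probe set of that name, while Grk3, the current name of the same kinase, did), 14 were lower and 5 higher in H2be-GF, and the median was -0.07. The channel subunits Cnga4 (-0.13, SE 0.06, limma adjusted p = 0.587) and Cnga2 (-0.12, SE 0.05, limma adjusted p = 0.604) had the smallest p-values. Over this list 3 genes were lower without overlap, where 1.6% of all probe sets were.

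Of 17 measured genes of OR choice and zone, 1 was called, where 0.0862% of all probe sets tested were called in either direction. It was Lhx2, a homeodomain factor that binds OR promoters and enhancers. It averaged 11.46 ± 0.03 (SD, n = 4) on H2be-GF arrays against 11.09 ± 0.06 (SD, n = 6) on WT arrays, a rise of 0.37 (SE 0.06, limma adjusted p = 0.0425). That call was kept under 6 of 21 alternatives, with a difference of 0.35 to 0.39 over all of them. Leaving out any single array ended it (limma adjusted p = 0.0665 to 0.19). It also did not pass with a second quantile normalization (limma adjusted p = 0.0637), after centring on the OR mean (0.279) or with the replicate number as a block (0.592). Within either Xist set it did not pass. Ncam2, an adhesion molecule of ventral neurons, was at 10.76 ± 0.05 (SD, n = 4) on H2be-GF arrays against 10.50 ± 0.02 (SD, n = 6) on WT arrays. Its difference was 0.26 (SE 0.05, limma adjusted p = 0.147), without overlap, as for 1.29% of all probe sets with H2be-GF higher. Ebf1, Ebf3 and the other genes of the list lay between -0.14 and 0.14.

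As to the samples as a whole, array medians over the probe sets tested ranged over 8.25 to 8.33, and correlations between arrays over 0.969 to 0.988. The probe set of H2bc21, the gene of H2BE, was lower in H2be-GF, at 11.84 ± 0.07 (SD, n = 4), than in WT, at 12.07 ± 0.05 (SD, n = 6) (-0.23, SE 0.06, limma adjusted p = 0.297). The genotypes did not overlap, as for 1.6% of all probe sets with H2be-GF lower. The study reports by quantitative PCR a transgene level well above that of the endogenous gene in this line. This probe set does not show that excess. Its probe sequences were not examined, and it does not check the genotype labels. Mean log2 signals of marker lists were compared as ranges over arrays. Mature olfactory neuron markers (11 of 11 measured) were at 11.70 to 11.71 in H2be-GF and 11.72 to 11.82 in WT, and 9 of the 11 were lower, none of them called. All 11 are also in the list of genes downstream of any OR, so that these are not separate observations. The dorsal zone genes Nqo1 and Acsm4 were at 11.42 to 11.52 in H2be-GF and 11.52 to 11.69 in WT. The ventral zone genes Ncam2 and Nrp2 were at 10.61 to 10.65 in H2be-GF and 10.39 to 10.51 in WT. These zone genes are likewise part of the list of OR choice and zone. Respiratory ciliated cell markers (3 of 3) were at 9.37 to 9.50 in H2be-GF and 9.51 to 9.68 in WT. Markers of immature neurons, basal progenitors (5 genes), sustentacular cells and glands overlapped between genotypes, as did Alb, Ins2 and Myh6, genes of other organs, at 7.01 to 7.30 in H2be-GF and 6.77 to 7.35 in WT. Averaged over all arrays, Ins2 alone was at 8.85, above 7, while Alb (5.98) and Myh6 (6.37) were above 5 only. A mean above 7 thus does not by itself show expression. The share of background in the signals of the 6 receptors was not tested. No defining marker was at 0. The part of these marker levels in the differences of the 6 receptors was not tested.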

How the data were processed

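Whole MOE RNA was measured on Mouse Gene 1.0 ST arrays of Affymetrix. The authors deposited log2 values per probe set, which Expression Console computed by IterPLIER after sketch-quantile normalization. The processing notes also name limma. Tool versions and a genome build are not given in the sources used here. Values ran from 0 to 14.2 over 35556 probe sets, with 95 to 157 values per array at 0. Quantile normalization hides a change shared by most genes, and dim probe sets are less certain. The number of arrays limits the precision, and p-values measure the spread between pools. Levels of different probe sets were not compared.

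The platform annotation named the probe sets (21789 with 1 gene symbol, 1621 with several, not used for names, and 12146 with none). Symbols were updated through Entrez IDs, which matched 21698, with a RefSeq gene table of GRCm38.p6, used otherwise for gene order. Windows came from RefSeq and were aligned globally with biopython 1.88. They were found for 4 of the 6 receptors. Probe sequences were not used here.

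Differences were fitted without covariates by lmFit and eBayes of limma 3.58.1 (R 4.3.3), two-sided, on 23194 probe sets with a symbol and a mean above 5. Adjustment was by Benjamini-Hochberg over all of them and over 748 of 1035 OR probe sets, those whose mean exceeded 7, after the study's methods. A call is an adjusted p under 0.05, and SEs are limma's. Genes represented by several probe sets took that of the highest mean. The procedure was tested on simulated data. The 6 receptors, the neighbour sets and the gene lists were chosen with earlier results of these data known. Besides the 6, the text names some genes by rule. Among the nearest measured ORs in gene order, at any distance, these are the 2 with the largest change each way (Olfr305 and Olfr298, Olfr5 and Olfr1346). Flanking genes are those called or else the 2 with the smallest p. Added are up to 2 genes per list with the smallest p, and the 5 ORs most like Olfr293 and Olfr290. Other genes, Olfr308 among them, were named after their values were seen. Alternatives concerned the normalization, array weights, the variance model, a constant of 16 added on the linear scale, the filters, the replicate number as a block, the Xist sets and leaving out each array. Plots were drawn with matplotlib 3.10.9.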

Additional observations from a re-analysis of the deposited data

Results flagged for a closer look

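A single value among the 6 receptors stood far from the rest of its group. Olfr291 was at 8.55 on WT 2, while the other 5 WT arrays lay between 8.25 and 8.36, a gap of 0.651 of the whole range. Of 12 groups of values examined (6 receptors in each genotype), this was the only one past the limit for its number of arrays, and chance flags about 1 in 20 groups. The limit is higher for 4 arrays than for 6. Olfr294 on H2be-GF 1 (5.52), with a gap of 0.705 of the range over 4 arrays, stayed within it. WT 2 was also the highest WT array for Olfr292 (7.88) and Olfr295 (7.05) and had the highest OR mean of the WT arrays (8.18).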

How the results depend on the processing

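The median difference of the 6 receptors was 0.28. It was 0.25 to 0.31 when each array was left out, 0.27 to 0.28 under the other settings of normalization, scale and block, and 0.35 within the arrays high in Xist and 0.22 within those low in Xist. The count of genes without overlap was 3, at 3 to 5 when an array was left out (5 without WT 2) and 5 within each Xist set. The count of the 6 called over ORs was 4, at 1 to 4 when an array was left out (1 without H2be-GF 1, 2 or 3, and 2 without WT 6), 2 after centring on the OR mean and 0 within each Xist set, where 5 arrays remain. The OR probe sets called numbered 74, with 33 without H2be-GF 2, 47 without H2be-GF 1, up to 85 when another array was left out, and 0 within each Xist set. The probe sets called over all numbered 20, with 11 to 19 when an array was left out, 12 after centring on the OR mean, 114 with a trended robust variance, 36 with the filter at 7, and 0 within each Xist set. The median correlation over the WT arrays was 0.54, and 0.05 after centring on the OR mean. The rise of Olfr305 was called under 18 of 21 alternatives and the fall of Olfr5 under 17. The causes of these shifts were not tested. Dim probe sets such as that of Olfr294 limit what can be seen of their differences.

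Arrays of the 2 genotypes share replicate numbers 1 to 4. Same-numbered arrays correlated at 0.53, 0.22, -0.42 and 0.26 after the genotype means were removed. The sign followed the Xist sets, positive for every H2be-GF and WT array of the same set and negative across sets. H2be-GF 3 is low and WT 3 high in Xist. Because the sets were not removed, these values cannot decide whether the numbers pair the samples. With the replicate block, in which WT 5 and WT 6 are unpaired, 6 OR probe sets and 5 probe sets over all were called and none of the 6 receptors, at the same median difference of 0.28.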
